A study of Mus musculus with 6 samples.

Results

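The genes described here are targets of the tumour suppressor p53 and genes of cell cycle arrest, a list of 31 genes taken by symbol. Of these, 21 had at least 1 transcript in the authors' table, with 40 transcripts at their loci, of 15113 transcripts at 7171 loci in all. Cdkn1b, Bbc3, Sesn1, Perp, Pmaip1, Fas, Tigar, Rrm2b, Gdf15 and Ddb2 were not analysed here. RNA sequencing was done on C17.2 cells, an established multipotent mouse neural stem cell line whose source strains are labelled CD1 x C57BL/6, so every group comes from 1 line. The groups were cells treated with heme, cells in neural induction medium (Knockout DMEM with GlutaMAX, N2 supplement and brain-derived neurotrophic factor, BDNF, at 10 ng/ml), and control cells in growth medium (DMEM/F12 with fetal bovine serum). The design names 2 biological replicates per group, and whether these were separate cultures is not stated, so p-values measure only the spread between these samples, which may be technical. The sources used here do not give the dose, duration or medium of the heme treatment or the duration of induction. The 2 heme columns hold 1 profile: in 13963 transcripts replicate 2 is replicate 1 raised by 25 to 50%, and the other 1150 are at 0 in both. They were counted as 1 sample, and heme was represented by its replicate 1 column, with no replicate spread of its own.

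p53 is a transcription factor that is made and destroyed continuously, and the ubiquitin ligase MDM2, itself encoded by a p53 target, drives the destruction. Stress such as DNA damage blocks this turnover, after which p53 raises the transcription of genes that stop the cell cycle, repair DNA or start apoptosis. In neural progenitors the pathway is known for limiting self-renewal and for removing damaged cells during brain development. Most of the control of p53 itself acts on the protein, which RNA sequencing does not measure.

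Promoter sequences of the members are shown first because a p53 response element is what makes a gene a direct target. RefSeq windows on GRCm38.p6, from 250 bases before to 50 bases after each annotated start, were found for 17 of the 21 genes, in 21 windows. They were searched for the p53 consensus element, a pair of 10-base elements with no spacer, keeping the C and G core of each and allowing 2 mismatches in 20 bases; the element reads the same way on both strands, and the number of mismatches was chosen after matches had been seen. A match occurred in 3 of the 21 member windows (14.3%), against 107 of 32851 windows (0.326%) in all. The 250 bases before the start are given 5′ to 3′ on the gene's strand, with the matched element in capitals.
Cdkn1a, chr17:29090729-29090978, plus strand: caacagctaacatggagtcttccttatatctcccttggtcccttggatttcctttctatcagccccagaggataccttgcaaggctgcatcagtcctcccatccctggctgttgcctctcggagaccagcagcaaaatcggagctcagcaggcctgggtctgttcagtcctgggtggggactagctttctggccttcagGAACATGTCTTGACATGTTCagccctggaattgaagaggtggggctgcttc
Ccng1, chr11:40755287-40755536, minus strand: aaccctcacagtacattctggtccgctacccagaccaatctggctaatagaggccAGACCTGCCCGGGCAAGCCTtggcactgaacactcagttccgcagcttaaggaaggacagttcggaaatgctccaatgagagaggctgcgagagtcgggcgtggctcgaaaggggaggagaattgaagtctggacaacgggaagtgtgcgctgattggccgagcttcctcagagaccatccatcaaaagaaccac
Ckap2, chr8:22185820-22186069, minus strand: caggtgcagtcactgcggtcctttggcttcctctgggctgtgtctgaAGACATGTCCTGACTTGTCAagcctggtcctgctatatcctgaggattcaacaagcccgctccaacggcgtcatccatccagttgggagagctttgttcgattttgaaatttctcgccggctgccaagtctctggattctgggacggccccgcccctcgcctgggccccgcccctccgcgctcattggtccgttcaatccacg
The Cdkn1a element lies 51 to 32 bases before the start and the Ccng1 element 195 to 176 bases before it, each with 1 mismatch. This Cdkn1a start is next to that of Cdkn1a-202, the less abundant of its listed transcripts, and Cdkn1a-201 starts farther downstream. The Ckap2 element lies 203 to 184 bases before the start and has 2 mismatches. A match is a description of the letters and not a measured binding site. Only these windows and elements with no spacer were searched, so a window without a match does not show that its gene lacks an element. The list was taken as p53 targets and arrest genes, and the number of mismatches was chosen after matches were seen. The larger share among members is therefore described and was not tested.

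Levels are given as FPKM, which corrects fragment numbers for transcript length and library depth, summed over all listed transcripts of a locus. Mapped sequence per library was 4.14 to 4.56 gigabases. Of 7171 loci, 7039 had at least 1 FPKM in at least 2 of the 5 libraries, and all 21 members were among them. One library, control replicate 2, differed from the rest in genes outside the pathway. Hmox1, the heme oxygenase, was at 222 FPKM there against 43.7 to 79.4 in the other 4 libraries, and Mt1, a metallothionein, at 186 against 43.9 to 54.5. Mki67, which marks cycling cells, was at 15.7 FPKM there and between 28.2 and 33.8 elsewhere. Of 7 neural progenitor markers 4 were listed, with Nes at 108 to 132 FPKM, Vim at 663 to 798 and Sox2 at 13.6 to 19.8 over all libraries. Fibroblast markers were also present, with 4 of 6 listed, while none of the astrocyte, microglia, endothelium or erythroid markers sought were listed.

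No member passed the test between conditions, and in most of them 1 library, control replicate 2, was the highest. Cdkn1a, the main arrest gene of the pathway, was 2.00-fold higher in control replicate 2 than in control replicate 1, and Mdm2, the main feedback gene, 1.99-fold. The members passing limma's test were 0 of 21 for heme, for induction and for heme against induction, where 0.0426%, 0.0142% and 0.0568% of loci passed. Heme, both induction libraries and control replicate 1 lay within 1.2-fold of each other in 14 of 21 members, where 51.4% of all loci tested did so. Control replicate 2 was the highest of the 5 libraries in 14 of 21 members and the lowest in 4, against 28.2% and 32.3% of all loci. Its level over the median of the other libraries was 1.21-fold at the median member and 0.989-fold at the median locus. It was at least 1.2-fold the others in 11 members and at least 1.5-fold in 4, where 18.7% and 7.20% of all loci were.

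**Figure D1:**
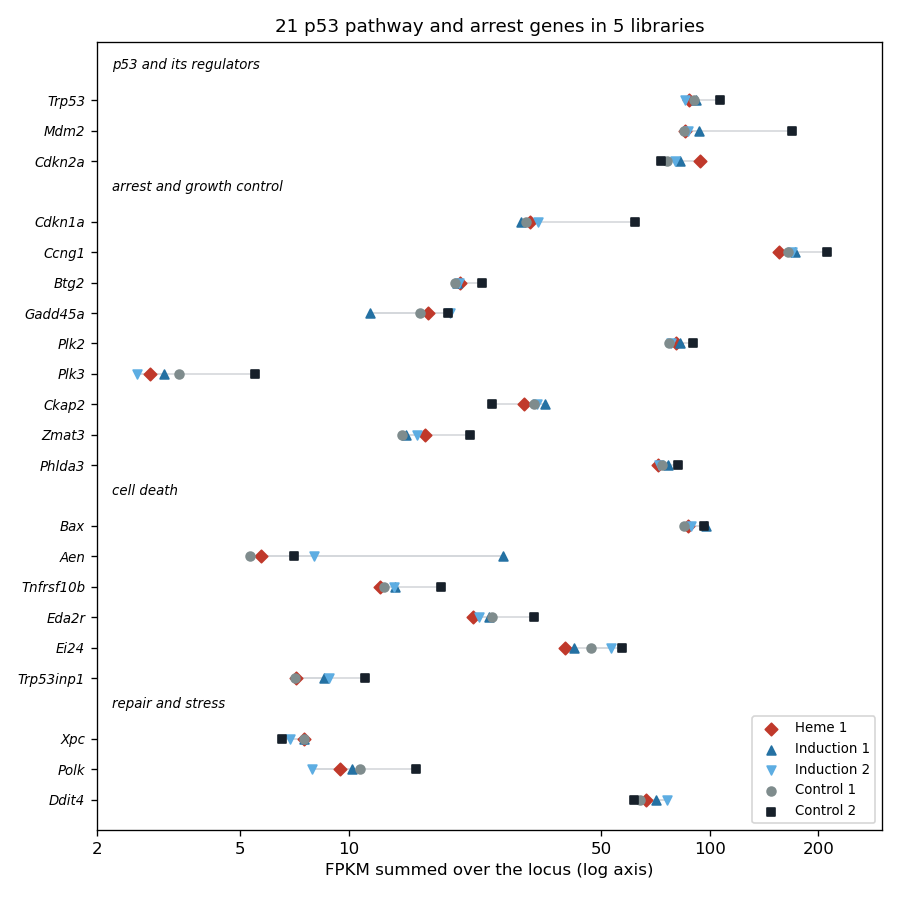
Level of each of the 21 genes in each of the 5 libraries, as FPKM summed over the locus on a log axis, with genes grouped by role; each mark is 1 library and the grey line spans them. The dark square of control replicate 2 lies at the right end in 14 genes, furthest from the rest in Mdm2 and Cdkn1a, and Aen has 1 induction library at 26.7 FPKM far from the others.

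Trp53, which encodes p53, was at 87.8 FPKM in the heme library, 91.3 and 85.6 in the induction libraries and 90.3 and 107 in the control libraries. Heme lay just below both controls, and the induction libraries overlapped them. The log2 fold change was -0.16 ± 0.13 (SE) for heme and -0.15 ± 0.11 for induction, with limma adjusted p of 0.998 and 0.935. Without control replicate 2 these were -0.04 and -0.03, and without control replicate 1 they were -0.29 and -0.28.

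Trp53 has 5 listed transcripts, of which 4 code for protein, and the ends of a pair of them are shown because they tell the regular form of mouse p53 from the alternatively spliced one, known for lacking the regulatory end of the protein. They share 1092 coding bases and differ after them. Below, on the plus strand of chromosome 11, the last 24 shared bases are in lower case and the bases that differ, with the stop codon, are in capitals.
Trp53-203, differing part at chr11:69591351-69591431: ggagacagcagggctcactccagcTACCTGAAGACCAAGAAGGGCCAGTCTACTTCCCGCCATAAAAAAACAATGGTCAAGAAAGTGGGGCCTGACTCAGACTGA
Trp53-206, differing part at chr11:69591255-69591308: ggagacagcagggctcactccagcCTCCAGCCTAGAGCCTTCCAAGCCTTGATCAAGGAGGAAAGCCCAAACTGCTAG
Trp53-203 was at 46.5 FPKM with heme, 46.8 and 31.4 with induction and 42.9 and 48.2 in controls. Trp53-206, which has the alternative end, was at 10.8 FPKM with heme, 11.5 and 8.33 with induction and 11.3 and 11.4 in controls, which is 9.72 to 12.6% of the locus over all libraries. Trp53-201 varied more, with 5.21 FPKM with heme, 6.96 and 17.1 with induction and 10.5 and 18.2 in controls, and the induction and control libraries overlapped. Trp53-201 has the regular end, and Trp53-202, at 15.3 FPKM with heme, 16.1 and 19.2 with induction and 17.6 and 16.5 in controls, has the alternative one. Both transcripts with the alternative end together made up 29.7% of the locus with heme, 30.3 and 32.1% with induction and 32.0 and 26.0% in controls. Trp53-203 was the leading transcript in every library; the other 3 were chosen for description after their values were seen.

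Mdm2, whose protein marks p53 for degradation, was at 85.6 FPKM with heme, 93.1 and 86.9 with induction and 84.9 and 169 in controls. The mean was 90.0 ± 4.40 FPKM with induction and 127 ± 59.6 in controls (SD, n = 2 each). The 4 libraries other than control replicate 2 spanned 1.10-fold, and a ratio of control replicate 2 to control replicate 1 as high as that of Mdm2 was found in 4.43% of loci. Its log2 fold change was -0.48 ± 0.41 for heme and -0.41 ± 0.34 for induction, with limma adjusted p of 0.998 and 0.935. Without control replicate 2 these became 0.012 and 0.082, so both signs rest on that library.

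Mdm2 has an upstream promoter and a p53-responsive promoter in its first intron, known as P2, which gives the gene its feedback role. The main listed transcript, an assembled one with no gene name, starts at position 117710078 of chromosome 10 (GRCm38, minus strand), 680 bases downstream of the upstream-most annotated start and inside intron 1 of Mdm2-201. It was at 58.6 FPKM with heme, 62.3 and 59.2 with induction and 59.1 and 115 in controls, which is 67.0 to 69.6% of the locus in every library. Mdm2-209, annotated as subject to nonsense-mediated decay and starting 736 bases downstream, was at 23.6 FPKM with heme, 26.5 and 24.0 with induction and 23.1 and 46.9 in controls. Both of these transcripts were highest in control replicate 2, and their shares of the locus differed little between libraries. A full-length transcript from the upstream promoter was not analysed here.

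Cdkn2a encodes the inhibitor p16INK4a of the cyclin D kinases and, from another first exon, ARF, which holds MDM2 away from p53. The listed transcript, Cdkn2a-201, starts at position 89282192 of chromosome 4, inside intron 1 of Cdkn2a-202, and is the p16INK4a form; the ARF form was not analysed here. It was at 93.8 FPKM with heme, 82.6 and 80.2 with induction and 76.1 and 73.0 in controls. The heme library was above both induction libraries, and these were above both controls. Against control, heme gave a log2 fold change of 0.33 ± 0.086 (limma adjusted p = 0.989) and induction one of 0.12 ± 0.07 (adjusted p = 0.935). Heme against induction gave 0.20 ± 0.086 (adjusted p = 1.00). It was the member with the smallest p in the heme comparison and the only one there below an unadjusted p of 0.05, as were 3.59% of loci.

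Among the 9 genes of arrest and growth control, control replicate 2 was highest in 7, where it was highest in 28.2% of all loci. Cdkn1a encodes p21, the inhibitor of cyclin-dependent kinases through which p53 arrests the cycle. It was at 31.7 FPKM with heme, 30.0 and 33.4 with induction and 31.0 and 62.1 in controls. The mean was 31.7 ± 2.37 FPKM with induction and 46.5 ± 21.9 in controls (SD, n = 2 each). The 4 libraries other than control replicate 2 spanned 1.11-fold, and 4.40% of loci had as high a ratio between the controls. The log2 fold change was -0.46 ± 0.42 for heme and -0.46 ± 0.34 for induction, with limma adjusted p of 0.998 and 0.935, and it became 0.031 and 0.029 without control replicate 2.

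Cdkn1a has 2 listed transcripts that share a coding part of 477 bases. Cdkn1a-201, with its start 2796 bases downstream of the upstream-most annotated start, was at 26.5 FPKM with heme, 27.1 and 28.5 with induction and 25.7 and 54.0 in controls, 82.8 to 90.2% of the locus. Cdkn1a-202, which starts right after the promoter window printed above, was at 5.20 FPKM with heme, 2.94 and 4.83 with induction and 5.33 and 8.07 in controls. Both were highest in control replicate 2.

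**Figure D2:**
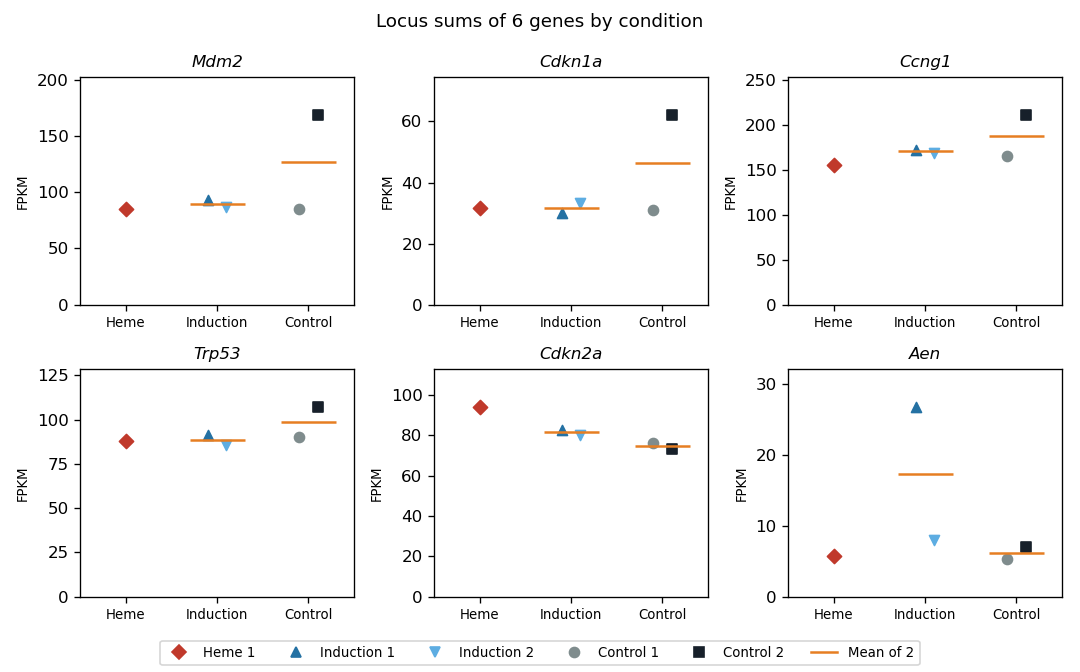
FPKM summed over the locus for 6 genes by condition, with heme left, induction in the middle and control right; marks are single libraries and the orange line is the mean of 2 libraries. In Mdm2 and Cdkn1a control replicate 2 stands alone near 169 and 62.1 FPKM, in Cdkn2a heme lies above the rest, and in Aen 1 induction library is high.

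Ccng1, encoding cyclin G1, a regulator of MDM2 phosphorylation, was the most abundant member: 155 FPKM with heme, 172 and 169 with induction and 165 and 211 in controls. Its log2 fold change was -0.27 ± 0.16 for heme and -0.13 ± 0.13 for induction (limma adjusted p = 0.998 and 0.935), and without control replicate 2 they were -0.088 and 0.051. Without control replicate 1 they were -0.44 and -0.30. The Ccng1 and Cdkn1a promoters are the ones that matched the element with 1 mismatch.

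Plk3, a polo-like kinase of the stress response, was the least abundant: 2.81 FPKM with heme, 3.06 and 2.59 with induction and 3.38 and 5.47 in controls. Heme and both induction libraries lay below both controls. Only 24.0 to 59.8 kilobases of mapped sequence per library stood behind these values, against 2340.1 to 3222 for Ccng1. Plk3-202, a processed transcript with no coding part, was at 1.18 FPKM with heme, 1.76 and 0.489 with induction and 0.268 and 5.47 in controls. The coding Plk3-203 was at 1.64 FPKM with heme, 1.31 and 2.11 with induction and 3.11 and 0 in controls. The high Plk3 sum in control replicate 2 is thus all from the form with no coding part. Zmat3, an RNA-binding regulator of splicing and mRNA decay, was at 16.2 FPKM with heme, 14.4 and 15.4 with induction and 14.0 and 21.6 in controls, so that control replicate 2 was the highest and control replicate 1 the lowest.

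Of the other arrest genes, Btg2, an antiproliferative regulator of mRNA deadenylation that marks neurogenic divisions, was at 20.3 FPKM with heme, 19.9 and 20.2 with induction and 19.7 and 23.4 in controls. Plk2, another polo-like kinase, was at 80.7 FPKM with heme, 82.7 and 77.8 with induction and 77.1 and 90.0 in controls. Phlda3, an inhibitor of AKT, was at 72.0 FPKM with heme, 76.5 and 72.1 with induction and 73.6 and 81.7 in controls. In these 3 genes control replicate 2 was the highest library, by 1.12 to 1.17 times the median of the others. Gadd45a, a growth arrest and DNA damage gene, was at 16.5 FPKM with heme, 11.4 and 19.0 with induction and 15.7 and 18.8 in controls; its induction libraries enclosed all the others. Ckap2, encoding a spindle protein and thus a proliferation gene as well as a p53 target, was at 30.5 FPKM with heme, 35.0 and 33.1 with induction and 32.6 and 24.9 in controls. It was lowest in control replicate 2, at 0.762 times control replicate 1; its promoter is the one that matched the element with 2 mismatches.

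Among the 6 cell death genes control replicate 2 was highest in 4, against 28.2% of all loci. Tnfrsf10b, the mouse TRAIL death receptor, was at 12.2 FPKM with heme, 13.4 and 13.3 with induction and 12.5 and 18.0 in controls. Eda2r, a receptor for ectodysplasin A2, was at 22.1 FPKM with heme, 24.5 and 22.9 with induction and 24.9 and 32.6 in controls, with heme and induction below both controls. Trp53inp1, a p53-induced nuclear protein, was at 7.12 FPKM with heme, 8.52 and 8.80 with induction and 7.10 and 11.1 in controls. In all 3 the 2 control libraries lay further apart than the 2 induction libraries. Ei24, an autophagy protein of the endoplasmic reticulum, was at 39.6 FPKM with heme, 42.1 and 53.2 with induction and 46.7 and 57.1 in controls, and its log2 fold change for heme was -0.37 ± 0.2 (limma adjusted p = 0.998), with -0.23 without control replicate 2 and -0.52 without control replicate 1. Bax, the pore-forming executioner of mitochondrial apoptosis, was at 87.1 FPKM with heme, 97.5 and 88.8 with induction and 84.9 and 96.1 in controls, with all groups overlapping.

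Aen, a nuclease that enhances apoptosis, differed most in induction. Its locus was at 5.71 FPKM with heme, 26.7 and 8.02 with induction and 5.33 and 7.02 in controls. Both induction libraries lay above both controls, but they differed from each other by more than the weaker of them differed from the controls. Induction gave a log2 fold change of 1.15 ± 0.57 (limma adjusted p = 0.935) and heme against induction one of -1.24 ± 0.7 (adjusted p = 1.00). The induction value was 0.34 without induction replicate 1 and 1.96 without induction replicate 2. In the induction libraries most of the locus came from other transcripts than in controls. Aen-202 was at 0.575 FPKM with heme, 22.0 and 3.16 with induction and 0.567 and 0.680 in controls, which is 82.2 and 39.4% of the locus in the induction libraries, against 10.6 and 9.69% in controls. Aen-203, with a coding part of the same length, was at 4.43 FPKM with heme, 4.17 and 1.36 with induction and 3.92 and 5.44 in controls. Aen-204, a processed transcript with no coding part, was at 0.701 FPKM with heme, 0.578 and 3.50 with induction and 0.843 and 0.897 in controls, so that it led in induction replicate 2 with 43.7% of the locus; it was named for that lead in 1 library after its values were seen. Aen-202 passed the filter on low values only through the induction libraries, so no test of it is given. In the authors' deposited table for induction, Aen-202 has a log2 fold change of 4.98. The values there mostly follow the replicate 1 libraries, in which Aen-202 was at 22.0 FPKM with induction and 0.567 in control. In induction replicate 2 it was at 3.16 FPKM.

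The 3 genes of repair and stress behaved differently from each other. Polk, a translesion DNA polymerase, was at 9.42 FPKM with heme, 10.2 and 7.88 with induction and 10.7 and 15.3 in controls, with heme and induction below both controls. Its log2 fold change was -0.41 ± 0.29 for heme and -0.47 ± 0.24 for induction (limma adjusted p = 0.998 and 0.935). Without control replicate 2 these were -0.17 and -0.23, and without control replicate 1 they were -0.65 and -0.71. The induction value was -0.64 without induction replicate 1 and -0.30 without induction replicate 2. Xpc, the damage sensor of nucleotide excision repair, was at 7.51 FPKM with heme, 7.52 and 6.85 with induction and 7.51 and 6.52 in controls. Ddit4, an inhibitor of mTORC1 that also answers to hypoxia, was at 66.5 FPKM with heme, 70.9 and 76.3 with induction and 64.2 and 61.6 in controls. Both induction libraries and the heme library were above both controls. For induction the log2 fold change was 0.22 ± 0.079 (limma adjusted p = 0.935), the smallest p among members in that comparison.

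Heme-treated cells were compared with control cells in growth medium. The medium of the heme treatment is not given, so whether the groups differed in heme alone is not known. None of the 21 members passed limma's test at an adjusted p of 0.05 for heme, where 0.0426% of loci (3 of 7039, all lower) did, and 1, Cdkn2a, was below an unadjusted 0.05. Log2 fold changes ran between -0.48 and 0.33. They were below 0 in 17 of 21 members, against 50.7% of loci. Without control replicate 2 this held in 10 of 21 members, and the share of all loci was not computed for that fit. The median member stood at -0.1 with both controls and at 0.0021 without control replicate 2, and the median locus at -0.0035 and -0.014. The heme library was above both controls in Cdkn2a and Ddit4 (2 of 21, background 25.5%) and below both in 8 (background 31.1%): Trp53, Ccng1, Phlda3, Tnfrsf10b, Eda2r, Plk3, Ei24 and Polk. The test rests on 1 heme library and 2 residual degrees of freedom.

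Neural induction against growth medium asks what the move to induction medium does. None of the 21 members passed for induction, where 0.0142% of loci (1 of 7039) did, and 1, Ddit4, was below an unadjusted 0.05, as were 3.05% of loci. Both induction libraries were above both controls in Cdkn2a, Aen, Ckap2 and Ddit4 (4 of 21, background 18.2%) and below both in Eda2r, Plk3 and Polk (3 of 21, background 13.0%). Log2 fold changes were below 0 in 15 of 21 members, against 45.3% of loci. Without control replicate 2 this held in 6 of 21 members, and the share of all loci was not computed for that fit. The median member stood at -0.12 with both controls and at 0.051 without control replicate 2, and the median locus at 0.019 and 0.0068. Control medium held serum and induction medium is listed with N2 supplement, so medium and differentiation factors cannot be told apart.

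Heme against neural induction gave no member below 0.05 either adjusted or unadjusted, where 0.0568% and 3.38% of loci were. Log2 fold changes were between -1.24 (Aen) and 0.20 (Cdkn2a), and 13 of 21 were below 0, against 56.9% of loci. This comparison and the other pair share libraries, and the same control libraries enter both comparisons with control.

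The 2 controls can also be compared over all members at once. The median absolute log2 difference between control replicate 2 and control replicate 1 was 0.34 over the members and 0.21 over all loci, while that between the 2 induction libraries was 0.095 and 0.1, and that between heme and control replicate 1 was 0.064 and 0.089. The highest library was control replicate 1 in 0 members (18.5% of loci), heme in 1 (13.7%), induction replicate 1 in 4 (19.8%) and induction replicate 2 in 2 (19.8%).

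Other genes of the pathway are described from lists that hold none of the members and share a few genes with each other, and the examples given here for control replicate 2 were chosen after their values were seen. No gene of these lists passed limma's test in any of the 3 comparisons at an adjusted p of 0.05. Over all loci tested, control replicate 2 was highest in 28.2% and lowest in 32.3%. Among 27 further p53 targets tested, control replicate 2 was highest in 13 and lowest in 7, with a median of 1.15 times the other libraries; Gtse1, which shuttles p53 out of the nucleus, was at 47.6 FPKM there and at 31.0 to 35.7 in the others, and Polh, a translesion polymerase, at 20.7 against 13.7 to 15.2. Among 19 genes that p21 and the DREAM complex repress, which serve S phase and mitosis, control replicate 2 was lowest in 16, with a median of 0.672. Plk1, the mitotic polo-like kinase, was at 25.3 FPKM there and at 50.5 to 55.0 in the others, and Mybl2, the exception that was highest there, at 27.8. The summed level of this list was 646 FPKM with heme, 647 and 659.7 with induction and 657 and 451 in controls. The part of these genes, of Hmox1 and of Mki67 in the members' values was not tested. In bulk RNA, fewer cells of a kind and less RNA per cell cannot be told apart.

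Control replicate 2 was also lowest in all 4 fibroblast markers, whose summed level was 2746 FPKM with heme, 2698 and 2921 with induction and 2812 and 2035 in controls. The neural progenitor markers summed to 946 FPKM with heme, 941 and 939 with induction and 962 and 824 in controls. Most of these sums is Vim, at 798 and 663 FPKM in controls. Of these 4 markers, control replicate 2 was lowest in 2, Vim and Sox2. Nes was at 132 FPKM in both controls, and Hes1 at 13.8 and 15.5. Control replicate 2 was highest in 6 of 7 hypoxia genes (median 1.33) and in 4 of 6 integrated stress response genes (median 1.14). In the other lists it was highest in 4 and lowest in 3 of 17 p53 regulators (median 1.03), in 5 and 4 of 14 apoptosis genes (median 1.07), in 5 and 3 of 13 repair genes (median 1.03), and in 5 and 6 of 14 genes of the RB axis (median 0.912). Over all loci tested, control replicate 2 was highest in 28.2% and lowest in 32.3%, and the counts of these other lists are not read as a result. The part of all these genes too was not tested.

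**Figure D3:**
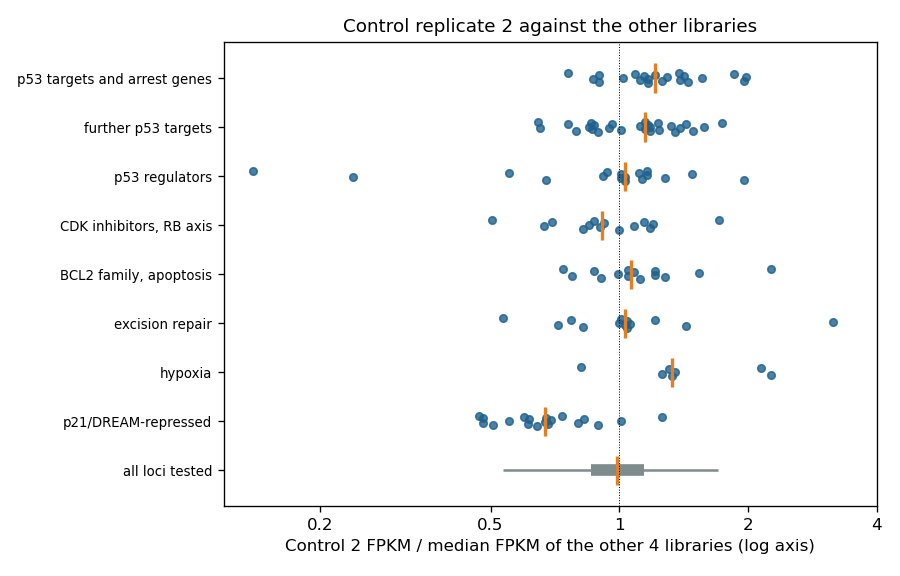
Level in control replicate 2 as a multiple of the median of the other 4 libraries, on a log axis, for the 21 members and for 7 other gene lists; each point is a gene and the orange bar is the list's median. The bottom row gives all 7039 loci, with the range from the 25th to the 75th percentile as a thick bar (0.859 to 1.14) and the range from the 5th to the 95th percentile as a thin line; the members' median is 1.21 and that of the p21 and DREAM list 0.672.

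Between conditions, 2 of the 27 further p53 targets were below an unadjusted p of 0.05 for heme, where 3.59% of loci were, and 2 for induction, where 3.05% were. The counts were 1 and 1 of the 17 p53 regulators and 1 and 1 of the 19 genes of the p21 and DREAM list. The p53 regulator counted for induction was Trp53bp1, which passed the filter on low values only through the induction libraries, so that count is not read as a result. Further counts were 1 and 0 of the 13 repair genes, 1 and 0 of the 7 hypoxia genes and 0 and 1 of the 14 genes of the RB axis. They were 0 and 0 in the apoptosis and stress response lists, and 1 of the 2 neuron markers, Map2, was below for heme. Map2, a microtubule-associated protein of neurons, was at 18.6 FPKM with heme, 11.7 and 15.4 with induction and 10.4 and 10.4 in controls, and its part in the other values was not tested. Sesn3, a sestrin that restrains mTORC1, was at 3.44 FPKM with heme, 14.1 and 16.2 with induction and 15.6 and 9.68 in controls, a log2 fold change of -1.59 ± 0.32 for heme (limma adjusted p = 0.761). Ninj1, the membrane rupture protein ninjurin 1, was at 9.25 FPKM with heme, 12.9 and 8.68 with induction and 17.9 and 19.3 in controls, with log2 fold changes of -0.93 ± 0.26 and -0.76 ± 0.21 (adjusted p = 0.989 for heme and 0.935 for induction). Heme and induction both lay below both controls in Ninj1, and heme lay below every other library in Sesn3. Cul4a, a scaffold of the ubiquitin ligase that acts in excision repair, was at 66.8 FPKM with heme, 47.5 and 46.9 with induction and 44.5 and 36.3 in controls, a log2 fold change of 0.72 ± 0.15 for heme (limma adjusted p = 0.787). Sirt1, a p53 deacetylase, was at 2.93 FPKM with heme, 5.82 and 5.70 with induction and 7.40 and 5.28 in controls. Vegfa, the angiogenic growth factor of the hypoxia list, was at 12.5 FPKM with heme, 14.8 and 15.1 with induction and 16.7 and 19.9 in controls. Heme was the highest library for Cul4a and the lowest for Sirt1 and Vegfa. The genes of this paragraph were named for a small unadjusted p, so these positions are not read as results.

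Trp53bp1, which encodes the DNA repair protein 53BP1, was at 0.410 FPKM with heme, 4.66 and 9.66 with induction and 0.274 and 0.604 in controls. It passed the filter on low values only through the induction libraries, so no test of it is given. Rps27l, a ribosomal protein that is also a p53 target, was at 130.0 FPKM with heme, 155 and 133 with induction and 106 and 113 in controls, a log2 fold change of 0.39 ± 0.1 for induction (adjusted p = 0.935). Aurkb, the mitotic kinase Aurora B, was at 19.8 FPKM with heme, 22.5 and 20.4 with induction and 13.3 and 14.8 in controls. Cks1b, a subunit of cyclin-dependent kinases, was at 97.2 FPKM with heme, 109 and 98.5 with induction and 74.1 and 83.4 in controls, a log2 fold change of 0.39 ± 0.098 for induction (limma adjusted p = 0.935). In all 4 genes both induction libraries lay above both controls, as they did in 18.2% of loci. These 4 were named for a small unadjusted p in this comparison, so their position is not read as a result.

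At some member loci the listed transcripts moved in opposite ways between libraries. Of the 14 member loci with more than 1 listed transcript, 5 (Aen, Ckap2, Ei24, Plk3 and Polk) had another leading transcript in some libraries than in others, where 60.9% of all such loci did. None of the 39 member transcripts tested passed limma for heme, where 0.0728% of transcripts did, and none for induction, where 0.00728% did. For heme 2 were below an unadjusted 0.05, against 4.95% of transcripts, and for induction 1, against 4.98%. The 1 for induction was Xpc-202, which passed the filter on low values only through the induction libraries, so that count is not read as a result.

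Ckap2-201, the annotated form, was at 23.4 FPKM with heme, 13.8 and 24.6 with induction and 11.1 and 11.3 in controls. An unnamed transcript of the locus was at 7.07 FPKM with heme, 21.2 and 8.50 with induction and 21.5 and 13.6 in controls. The heme library and 1 induction library thus held mostly Ckap2-201, and the other 3 libraries mostly the unnamed form. The log2 fold change of Ckap2-201 for heme was 1.00 ± 0.39 (limma adjusted p = 0.978).

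Ei24-202 was at 16.9 FPKM with heme, 20.7 and 47.9 with induction and 21.4 and 23.7 in controls, and Ei24-201 at 22.7 FPKM with heme, 21.4 and 5.36 with induction and 25.3 and 33.4 in controls. The induction libraries enclosed the controls in Ei24-202, so the groups overlapped. Both forms have a coding part of 1074 bases. Polk-201 was at 2.45 FPKM with heme, 4.64 and 4.06 with induction and 5.34 and 7.70 in controls, and an unnamed Polk transcript at 6.97 FPKM with heme, 5.58 and 3.82 with induction and 5.39 and 7.61 in controls. Polk-201 was lowest in heme, where it was 26.0% of the locus, against 49.7 and 50.3% in controls.

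Xpc-202, annotated as subject to nonsense-mediated decay, was at 0.310 FPKM with heme, 2.09 and 2.10 with induction and 0.228 and 0.0957 in controls. It made up 4.13% of the locus with heme and 27.8 and 30.7% in the induction libraries, against 3.03 and 1.47% in controls. It passed the filter on low values only through the induction libraries, so no test of it is given. Xpc-201, the coding form, was at 7.20 FPKM with heme, 5.42 and 4.75 with induction and 7.28 and 6.42 in controls, so the sum over the locus overlapped between groups. An unnamed Tnfrsf10b transcript was listed at 0 with heme, at 1.80 and 4.52 FPKM with induction and at 2.97 and 4.64 in controls (limma adjusted p = 0.978 for heme). Xpc-202 and this transcript were chosen after their values were seen, as were Mdm2-209 and Cdkn1a-202. Assembled transcripts of 1 locus share reads, and their values also depend on how StringTie divided those reads, so single transcripts are less certain than the locus sums.

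**Figure D4:**
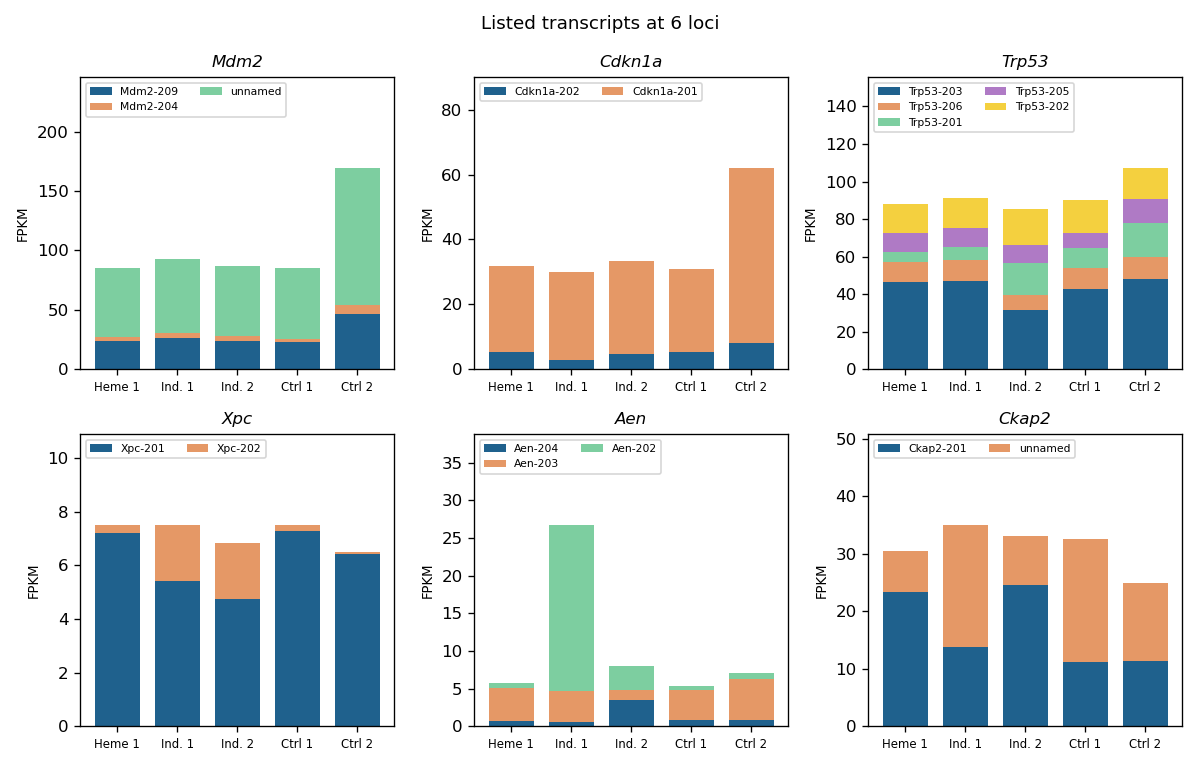
FPKM of each listed transcript at 6 member loci, stacked per library, with heme left, induction in the middle and control right. The shares of the Mdm2 and Cdkn1a transcripts differ little between libraries, Aen-202 is 22.0 FPKM in 1 induction library, and Xpc-202 is 2.09 and 2.10 FPKM in the induction libraries.

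In the authors' deposited tables, 1094 of 15113 transcripts for heme and 1088 for induction had a p below 0.05 after Benjamini-Hochberg adjustment done here. Of the 40 member transcripts, 0 and 1 were among them. The 1 was Aen-202, which passed the filter on low values only through the induction libraries, so it is not read as a result. The log2 fold changes in the authors' deposited tables lay within 0.1 of the ratio of replicate 1 libraries in 97.6% of transcripts above 1 FPKM, after a median offset was removed. These values thus follow single libraries, while control replicate 2 is the library in which 14 of the 21 members were highest, against 28.2% of loci.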

How the data were processed

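RNA sequencing libraries were made with the Illumina TruSeq RNA kit, per the labels' protocols. The submitters' processing notes name HISAT2, StringTie and edgeR on GRCm38 (mm10), without versions; how the listed transcripts were chosen is not stated there. The authors deposited FPKM and mean coverage per base (a signal) for each transcript, with no counts, so no count model was run and no counting interval is given. Coverage divided by FPKM gave each library's mapped bases. The authors also deposited 1 table per comparison with control, holding for each transcript a p-value, a log2 fold change and the score of a likelihood ratio test.

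FPKM was summed over the listed transcripts of each StringTie locus. Using R 4.3.3 and limma 3.58.1, linear models with eBayes and an intensity trend were fitted to log2(FPKM + 1), a scale that understates changes of low genes, for features with at least 1 FPKM in at least 2 of 5 libraries. Tests were two-sided at 0.05 after Benjamini-Hochberg adjustment across all features. A single fit held the 3 groups and had 2 residual degrees of freedom, with heme, as 1 library, taken to vary as the other groups do. The fit was tested on simulated data with noise drawn independently for each locus and library. A library that stands apart as control replicate 2 does was not simulated, so no conclusion is drawn from it. All listed members are named. Their transcripts that are named lead in a group or are marked as chosen after their values were seen. Not every leading transcript is named. Of each other list, up to 4 genes with the smallest p per comparison could be named, and those named by this rule are below an unadjusted 0.05. Gtse1, Polh, Plk1, Mybl2 and the progenitor markers were not named by this rule. The members and lists were chosen with earlier results of these data known. Alternatives covered the pseudocount, filters, scaling, heme columns, trend, replicate number, left-out libraries and unnamed transcripts.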

Additional observations from a re-analysis of the deposited data

How the results depend on the processing

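The counts of called features were small and moved with the settings, while no member was called except in the fit of all 6 columns. With 3 loci and 10 transcripts called for heme, 1 and 1 for induction and 4 loci for heme against induction, the fit of all 6 columns gave 207 loci and 417 transcripts, 51 and 86, and 210. It treats the 2 heme columns as replicates, though they hold 1 profile, and calls Sesn3 and Cul4a in heme and 1 member, Aen, in induction (log2 fold change 1.15, adjusted p = 0.0416) and 1, Aen, in heme against induction (-1.01, adjusted p = 0.0469). Sums over named transcripts alone gave 0 loci in each of the 3 comparisons. Without a filter there were 6 transcripts for heme and 0 loci and 0 transcripts for induction. Without an intensity trend there were 0 transcripts for heme, 27 loci for induction and 0 transcripts. A pseudocount of 0.1 gave 0 loci for induction, and a filter on the mean gave 0 transcripts. Leaving out each replicate in turn, with 1 residual degree of freedom, gave 0 to 0 calls in all 5 comparisons. The cause of these shifts was not tested.

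The replicate numbers are shared between groups, but nothing says that they pair samples, and the controls' difference correlated at -0.051 with that of the induction libraries over 7039 loci. With a replicate block there were 0 transcripts for heme, 2 loci and 0 transcripts for induction, 4 loci for heme and 6 for heme against induction, and 0 members.

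Of 25 values of single genes and transcripts, those that turned with another heme column were Trp53 for heme, at 0.10 with all 6 columns, 0.13 with the mean of both heme columns and 0.37 with the replicate 2 column, and Ccng1 and Ei24 for heme, at 0.20 and 0.017 with the replicate 2 column. With each replicate left out in turn, the values that turned lay between -0.98 and 0.012 for Mdm2 and between -0.95 and 0.031 for Cdkn1a with heme, and with induction between -0.90 and 0.082 for Mdm2, -0.95 and 0.029 for Cdkn1a and -0.30 and 0.051 for Ccng1. The lowest of each is without control replicate 1 and the highest without control replicate 2. Xpc-202, Aen-202 and Trp53bp1 were dropped by the filter without either induction library, and Xpc-202 by the filter on the mean. Depth limits Plk3 most.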
